A study of Mus musculus with 19 samples.

Results

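Liver mRNA was examined for 10 enzymes that build triglyceride and phospholipid: Gpam, Agpat2, Lpin1, Dgat1, Dgat2, Pemt, Pcyt1a, Pcyt2, Chka and Lpcat3. They were chosen by name, and the Ensembl identifiers in the count tables were mapped to mouse symbols. All 10 were found among 49315 genes, and all 10 were among the 15016 genes abundant enough to be tested. The 19 female C57BL/6N mice formed 4 groups: 5 Gramd1c-/- and 5 Gramd1c+/+ mice on the high cholesterol diet (0.2% by weight), and 4 Gramd1c-/- and 5 Gramd1c+/+ mice on the low cholesterol diet (0.02%). Gramd1c encodes a protein of the endoplasmic reticulum that moves cholesterol inward from the plasma membrane, and the study asked what its loss does to the liver on each diet. The knockout was global, made with a knockout-first allele that carries a lacZ cassette on a strain with the Atm1Brd coat colour allele, and +/+ mice were littermates from crosses of heterozygotes. Diets started at 8 weeks of age and lasted 4 weeks, most mice were fasted for some hours before necropsy, and livers were perfused with saline. Each mouse gave 1 poly(A) library.

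Glycerolipid synthesis begins when an acyl chain is joined to glycerol-3-phosphate. A further acylation gives phosphatidic acid, which lipins dephosphorylate to diacylglycerol, the branch point of the pathway. Diacylglycerol either takes another acyl chain to become triglyceride or receives a choline or ethanolamine head group from a CDP-activated donor. Hepatocytes use both products to coat and fill very low density lipoprotein, and they also make phosphatidylcholine by methylating phosphatidylethanolamine.

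Libraries held between 27149972 and 34669648 counts on genes. Levels are given as TPM, in which the deposited count of a gene is divided by its exonic length and scaled to a total that is the same for every library. Gramd1c was at 1.07 to 3.61 TPM in the 9 Gramd1c-/- mice and at 9.56 to 15.99 TPM in the 10 Gramd1c+/+ mice, so no mouse went against its genotype label. The deposited tissue label reads gonadal adipose tissue while the cell type label reads liver. The 5 hepatocyte markers (Alb, Apoa1, Ttr, Serpina1a, Apob) summed to between 73256 and 121496 TPM in every library, and the 5 adipocyte markers (Adipoq, Lep, Plin1, Cfd, Retn) to between 0.252 and 125 TPM. The highest adipocyte sum and the highest sum of 5 adrenal cortex markers, 418 TPM, were in the same animal, Gramd1c+/+ low cholesterol mouse 2. On principal component 1, which held 24.4% of the variance, Gramd1c-/- high cholesterol mouse 5 stood at 83.1 and the others between -46.7 and 38.4. In bulk liver, fewer cells of a type and less RNA per cell cannot be told apart.

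Levels of the members spanned a wide range in TPM. The exonic length behind TPM covers all annotated exons, not the transcript made in liver. The order between genes therefore also depends on the annotation. Dgat2, the main triglyceride-forming acyltransferase of the liver, was highest at 484 ± 63.2 TPM (SD, n = 19). Pemt, which methylates phosphatidylethanolamine to phosphatidylcholine, followed at 321 ± 44.8 TPM and was below Dgat2 in 19 of 19 mice. Agpat2 (159 ± 17.6 TPM) and Pcyt2 (152 ± 31.0 TPM) were neighbours whose order held in only 15 of 19 mice. Lpcat3 (88.2 ± 17.6 TPM) was above Lpin1 (70.8 ± 47.9 TPM) in 14 of 19 mice, Lpin1 above Gpam (46.6 ± 21.5 TPM) in 14, and Gpam above Pcyt1a (31.9 ± 7.80 TPM) in 15. The ranges of these neighbours overlapped, and levels were not tested between genes. Dgat1 (14.6 ± 2.08 TPM) and Chka (4.02 ± 1.79 TPM) were lowest, and each was below its neighbour in 19 of 19 mice. In counts, before division by length, Chka (273 to 1390) and Dgat1 (487 to 753) overlapped. The mean order was the same in the Gramd1c-/- high cholesterol, Gramd1c+/+ high cholesterol and Gramd1c+/+ low cholesterol groups. In Gramd1c-/- mice on low cholesterol, Pcyt2 stood above Agpat2 and Gpam above Lpin1.

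**Figure D1:**
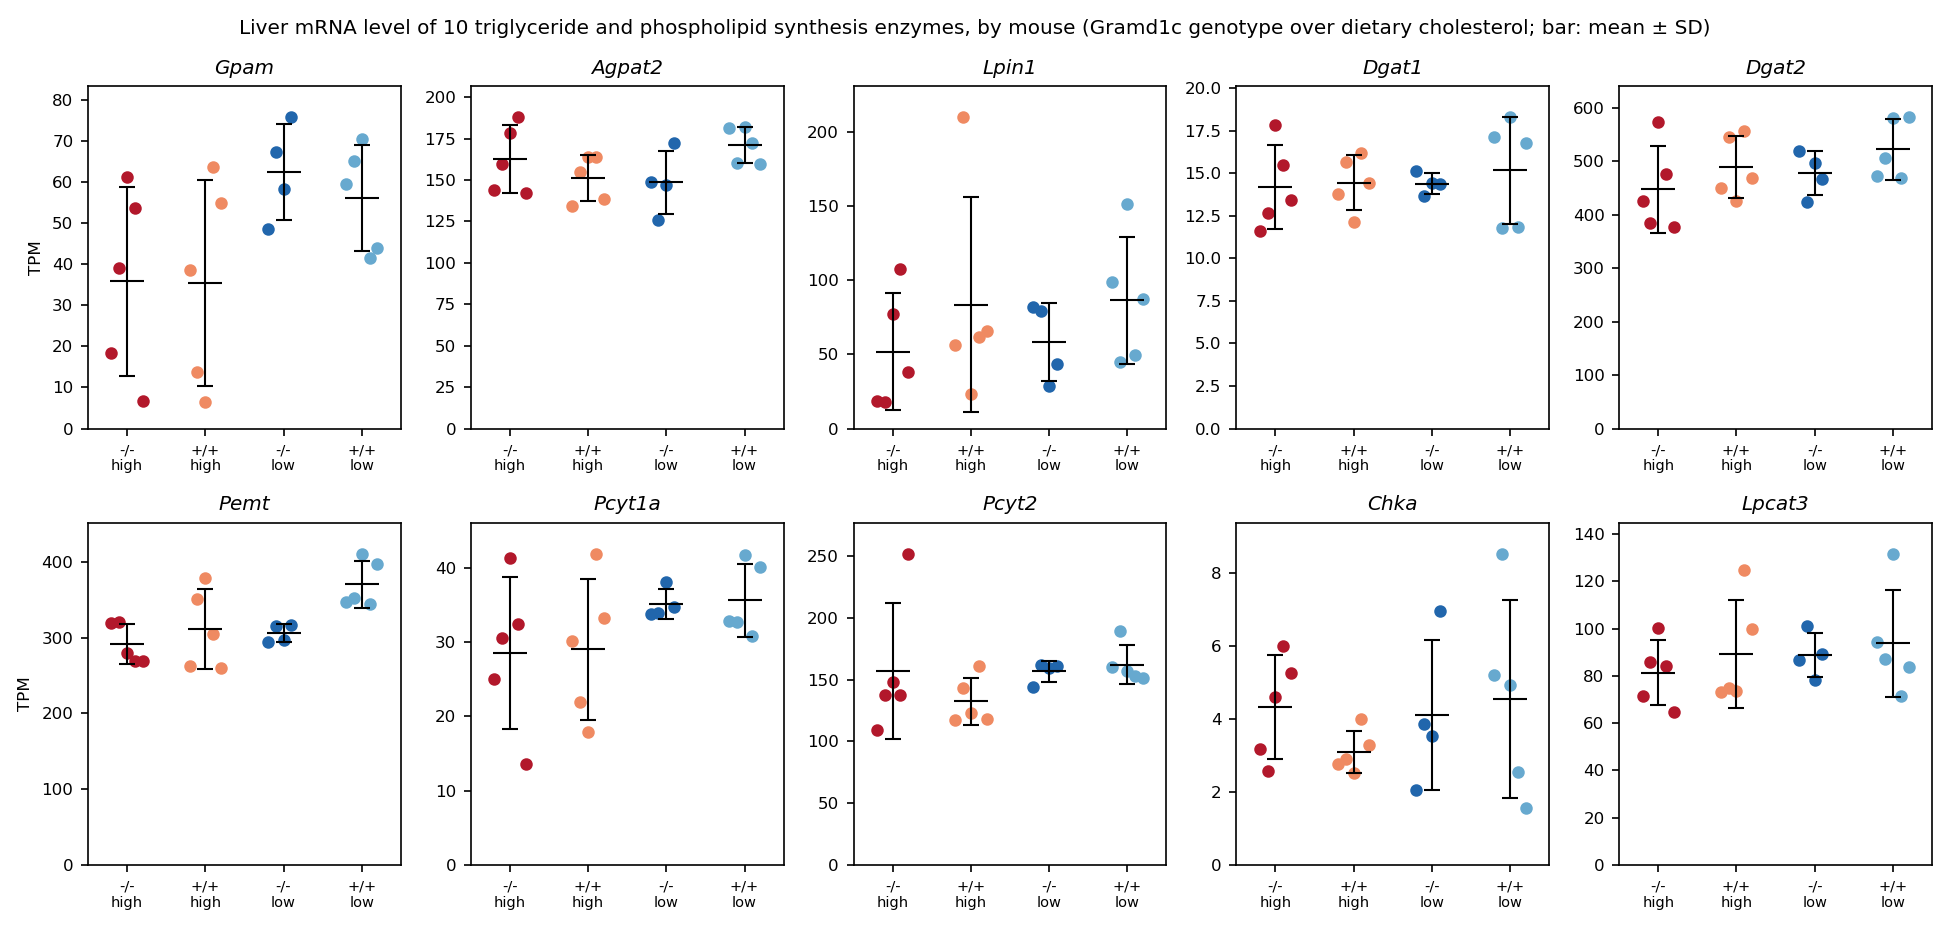
TPM of each member (y axis, linear, from 0) in each mouse (points) of the 4 groups (x axis: Gramd1c genotype over dietary cholesterol), with mean and SD as black bars. Gpam ran from 6.35 to 63.6 TPM on high cholesterol and from 41.6 to 75.7 TPM on low cholesterol, and Pemt on low cholesterol is the only member whose groups do not overlap.

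No member was called in any comparison. With edgeR's quasi-likelihood test and Benjamini-Hochberg adjustment over all genes tested, 0 of 10 members passed an adjusted p of 0.05 for diet in Gramd1c-/- mice, where 0.326% of all genes tested passed. The count was 0 of 10 for diet in Gramd1c+/+ mice (0.440% of all genes) and 0 of 10 for diet averaged over the genotypes (1.30%). For genotype it was 0 of 10 on high cholesterol, on low cholesterol and averaged over the diets, against 0.00666% of all genes each time, which is Gramd1c itself. For the genotype by diet interaction it was 0 of 10, and 0% of all genes passed. At an unadjusted p under 0.05 the member counts were 2 for diet averaged over the genotypes, where 18.3% of all genes had such a p, and 0 in each of the other 6 comparisons, where 1.66% to 11.4% did. DESeq2 and limma on log2(TPM + 1) also called 0 members in all 7. Beside these shares, a count of 0 of 10 does not set the members apart from other genes.

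The intervals show which changes the data leave room for. For diet in Gramd1c-/- mice, 8 of 10 members had a 95% interval of the log2 fold change inside -1 to 1, with bounds no further out than -0.78 and 0.79, and Gpam and Lpin1 did not. For diet in Gramd1c+/+ mice 7 of 10 did, the exceptions being Gpam, Lpin1 and Chka. On high cholesterol 8 of 10 did for genotype, without Lpin1 and Chka, and on low cholesterol also 8 of 10, without Gpam and Lpin1. The narrowest intervals belonged to Agpat2 and Dgat2. For diet averaged over the genotypes they ran from -0.20 to 0.17 for Agpat2 and from -0.28 to 0.09 for Dgat2.

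**Figure D2:**
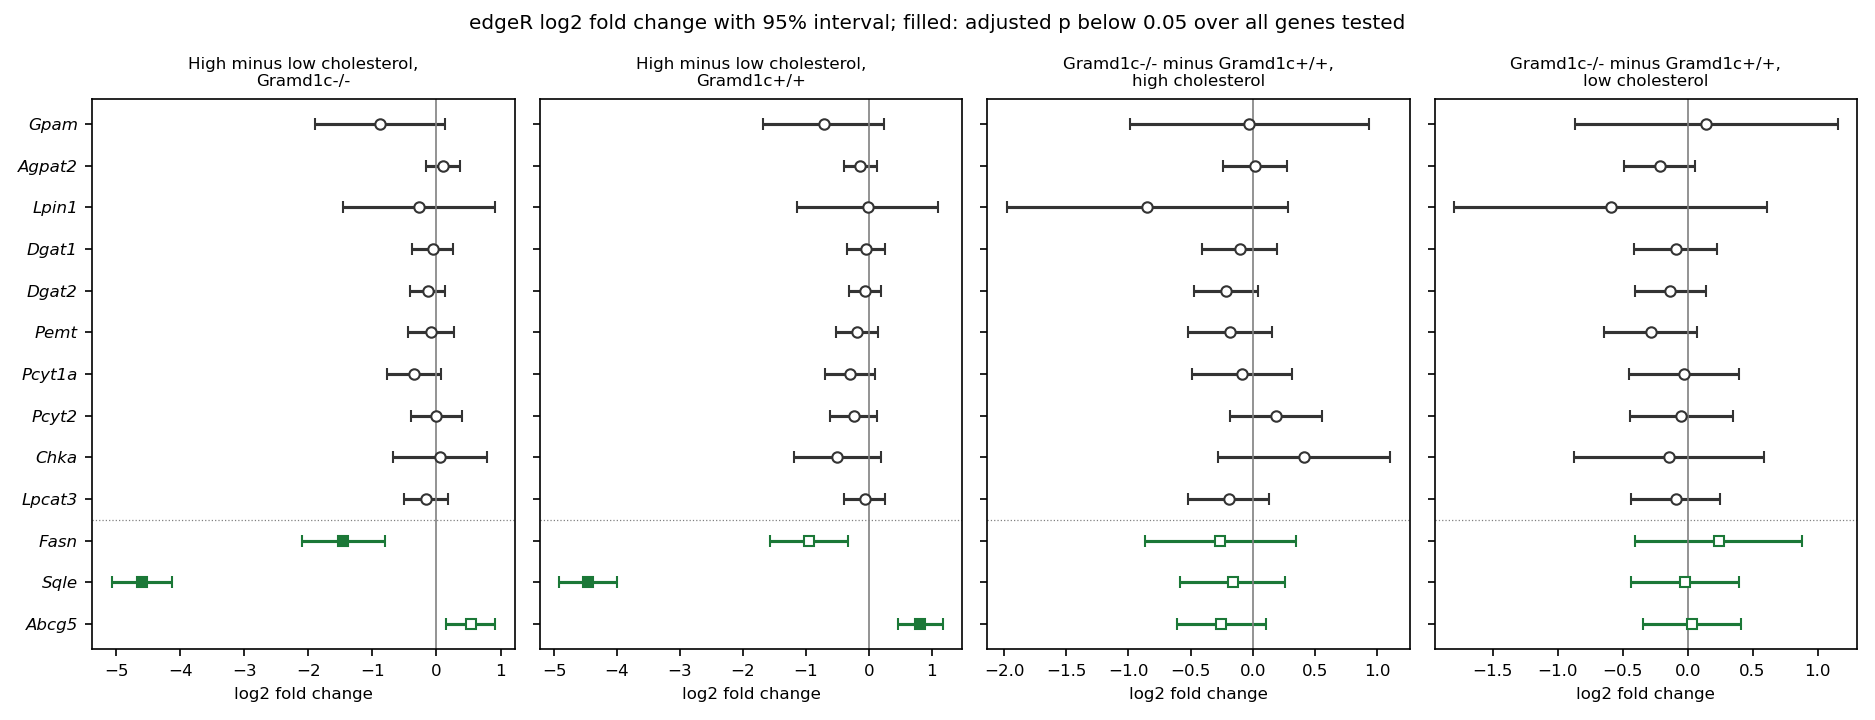
edgeR log2 fold change (x axis, its range set per panel) with 95% interval for the 10 members (circles) and 3 comparison genes (squares), in 4 panels for diet in Gramd1c-/-, diet in Gramd1c+/+, genotype on high and genotype on low cholesterol; filled symbols passed an adjusted p of 0.05 over all genes. No circle is filled, while Sqle is at -4.60 and -4.46 for diet in Gramd1c-/- and Gramd1c+/+ mice.

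The same libraries did show a diet response in genes of the sterol synthesis route, in Fasn and in Abcg5. Sqle, which makes squalene epoxide on the way to cholesterol, fell in Gramd1c-/- mice (log2 fold change -4.60, SE 0.23, edgeR adjusted p = 5.07e-11) and in Gramd1c+/+ mice (-4.46, SE 0.22, adjusted p = 7.63e-11). Hmgcs1, which acts early on that route, fell by 2.40 and by 2.27 on the log2 scale in Gramd1c-/- and Gramd1c+/+ mice, and Srebf2, which encodes the transcription factor of that route, fell by 1.27 and by 1.29. Averaged over the genotypes, Fasn, the fatty acid synthase that supplies acyl chains to this pathway, fell by 1.20 (SE 0.21, edgeR adjusted p = 0.00388). Abcg5, part of the sterol exporter to bile, rose by 0.67 (SE 0.13, adjusted p = 0.00634). In all, 4 of 17 listed regulators and reference targets fell and 1 rose in that comparison. Fasn and Srebf2 were called at the same depth and number of mice at which no member was. Both fell by more than any member's diet estimate, so this does not show that changes of member size would be called. Srebf1, Mlxipl, Nr1h3, Nr1h2, Ppara, Ppargc1a, Ppargc1b, Scd1, Acaca, Elovl6, Abca1 and Abcg8 did not pass.

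Gpam, the mitochondrial glycerol-3-phosphate acyltransferase that catalyses the first step, had the largest estimated diet difference. Gpam had 18.4, 39.0, 61.3, 53.5 and 6.69 TPM in Gramd1c-/- mice on high cholesterol, against 48.4, 67.2, 58.3 and 75.7 TPM in Gramd1c-/- mice on low cholesterol. In Gramd1c+/+ mice Gpam had 38.5, 13.7, 6.35, 63.6 and 54.8 TPM on high cholesterol, against 59.6, 65.0, 70.5, 41.6 and 43.9 TPM on low cholesterol. In both genotypes the high cholesterol mice ran from under 20 TPM (2 in each genotype) into the low cholesterol range, so the diet groups overlapped. The mice at 39.0 and 38.5 TPM lay between, also below every low cholesterol mouse of their genotype. These low values rest on at least 355 counts. The log2 fold change of Gpam for diet was -0.88 (SE 0.49, edgeR adjusted p = 0.479) in Gramd1c-/- mice and -0.72 (SE 0.46, adjusted p = 0.725) in Gramd1c+/+ mice. Averaged over the genotypes it was -0.80 (95% interval -1.50 to -0.10, SE 0.33, unadjusted p = 0.0270 and adjusted p = 0.218). Between genotypes Gpam differed by -0.03 on high and by 0.14 on low cholesterol (log2, SE 0.46 and 0.49), with intervals of about 1 on either side of 0.

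Agpat2, which acylates lysophosphatidic acid and whose loss causes generalised lipodystrophy in humans, was the steadiest member, with a coefficient of variation of 11.1% over 19 mice. Agpat2 ranged from 142 to 188 TPM in Gramd1c-/- and from 134 to 164 TPM in Gramd1c+/+ mice on high cholesterol, and from 125.9 to 173 and 160 to 182 TPM in Gramd1c-/- and Gramd1c+/+ mice on low cholesterol. Its largest fitted difference among the 4 pairwise comparisons was between genotypes on low cholesterol, at -0.22 (SE 0.13, edgeR adjusted p = 0.999), and the interaction estimate was 0.23 (SE 0.18). On TPM, an exact two-sided permutation test of the diet difference in Gramd1c+/+ mice (151 on high against 171 TPM on low cholesterol) gave p = 0.0476, unadjusted, while the edgeR estimate for the same comparison was -0.13 (SE 0.12, unadjusted p = 0.296). The 2 tests scale the libraries differently and estimate the spread between mice differently. What sets their p values apart was not tested.

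Lpin1 encodes lipin 1, a phosphatidate phosphatase that also acts in the nucleus as a coactivator and is induced by fasting and glucocorticoids. It varied most between mice, with a coefficient of variation of 67.7%. Lpin1 had 18.8, 18.2, 77.1, 108 and 38.0 TPM in Gramd1c-/- mice on high cholesterol, against 56.7, 210, 23.4, 61.8 and 66.0 TPM in Gramd1c+/+ mice. On low cholesterol it had 82.0, 79.3, 28.8 and 43.8 TPM in Gramd1c-/- mice, against 98.6, 44.9, 152, 49.97 and 87.7 TPM in Gramd1c+/+ mice. The 4 ranges overlapped, and the single highest value, 210 TPM, came from Gramd1c+/+ high cholesterol mouse 2. The estimate for genotype averaged over the diets was -0.72 on the log2 scale (95% interval -1.55 to 0.11, edgeR unadjusted p = 0.0844, adjusted p = 0.999). That value was -0.33 without the mouse at 210 TPM, the smallest size among the fits that each left out 1 mouse.

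The final step to triglyceride is shared by 2 unrelated enzymes. Dgat1, which also acts in intestine and adipose tissue, ranged from 11.6 to 17.9 TPM in Gramd1c-/- and from 12.1 to 16.2 TPM in Gramd1c+/+ mice on high cholesterol, and from 13.6 to 15.1 and 11.8 to 18.3 TPM in the same genotypes on low cholesterol. Dgat2 ranged from 377 to 573 TPM in Gramd1c-/- and from 426 to 556 TPM in Gramd1c+/+ mice on high cholesterol, and from 425 to 520 and 468 to 582 TPM on low cholesterol. All ranges of both genes overlapped. The ratio of Dgat2 to Dgat1 in TPM averaged 31.6 ± 3.14 in Gramd1c-/- and 33.9 ± 1.27 in Gramd1c+/+ mice on high cholesterol (SD, n = 5 each), and 33.1 ± 1.61 (n = 4) and 35.3 ± 6.10 (n = 5) on low cholesterol. For genotype averaged over the diets, Dgat2 was estimated at -0.17 (95% interval -0.36 to 0.01, edgeR unadjusted p = 0.0673, adjusted p = 0.999) and Dgat1 at -0.10 (-0.32 to 0.12).

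The head group branches were examined from choline kinase onward. Chka, choline kinase alpha, was lowest of the members in TPM. It had 2.57 to 5.99 TPM in Gramd1c-/- and 2.51 to 4.02 TPM in Gramd1c+/+ mice on high cholesterol. On low cholesterol it had 2.06 to 6.96 and 1.55 to 8.53 TPM in the same genotypes. The ranges overlapped. Its estimate for genotype on high cholesterol was 0.42 (SE 0.33, 95% interval -0.28 to 1.11) and for diet in Gramd1c+/+ mice -0.50 (SE 0.33, interval -1.19 to 0.19). The value of 8.53 TPM was that of Gramd1c+/+ low cholesterol mouse 2, the library with the highest adrenal and adipocyte marker sums, and without it the diet estimate in Gramd1c+/+ mice was -0.23; the part of those markers in it was not tested. Exons of Chka share 74 bases with an antisense gene, Gm16066, and whether the counting used strand is not given in the sources used here.

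Pcyt1a encodes the alpha form of CTP:phosphocholine cytidylyl transferase, the regulated step of the CDP-choline route. Pcyt1a had 25.05, 30.5, 41.4, 32.4 and 13.6 TPM in Gramd1c-/- mice on high cholesterol, against 33.8, 33.9, 38.1 and 34.7 TPM in Gramd1c-/- mice on low cholesterol. In Gramd1c+/+ mice it had 30.2, 21.9, 17.9, 41.9 and 33.3 TPM on high cholesterol, against 32.8, 32.7, 41.7, 30.8 and 40.1 TPM on low cholesterol. As for Gpam, some high cholesterol mice of each genotype lay below every low cholesterol mouse, and others did not. The estimate for diet averaged over the genotypes was -0.32 (95% interval -0.62 to -0.03, SE 0.14, edgeR unadjusted p = 0.0307, adjusted p = 0.229). Within the genotypes it was -0.35 in Gramd1c-/- mice (SE 0.20) and -0.30 in Gramd1c+/+ mice (SE 0.19).

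Pcyt2, the matching enzyme of the CDP-ethanolamine route, had 1 mouse far above its group. It had 109, 138, 148, 138 and 252.1 TPM in Gramd1c-/- mice on high cholesterol, against 118, 144, 123, 161 and 118 TPM in Gramd1c+/+ mice. On low cholesterol it had 145, 162, 160 and 161 TPM in Gramd1c-/- mice, against 160, 190, 157, 153 and 151 TPM in Gramd1c+/+ mice. The value of 252.1 TPM was that of Gramd1c-/- high cholesterol mouse 5, the library that stood apart on principal component 1. With that mouse the genotype estimate on high cholesterol was 0.19 (SE 0.18, edgeR unadjusted p = 0.304), and without it -0.10, both uncalled. The exact permutation test on TPM for diet in Gramd1c+/+ mice (133 on high against 162 TPM on low cholesterol) gave p = 0.0476, unadjusted, against an edgeR unadjusted p of 0.195.

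Pemt was the only member whose groups did not overlap in a comparison. On low cholesterol Pemt had 294, 315, 296 and 317 TPM in Gramd1c-/- mice, against 347, 352, 411, 345 and 397 TPM in Gramd1c+/+ mice. All Gramd1c-/- values lay below all Gramd1c+/+ values, and the mean was 17.5% lower. The exact two-sided permutation test on TPM gave p = 0.00794, the smallest that groups of 4 and 5 mice allow, unadjusted among 40 such tests on members of which 3 fell under 0.05. Of all genes tested, 1.73% had groups that did not overlap in this comparison. In the other 3 pairwise comparisons the groups overlapped for 10 of 10 members, where 0.246% of all genes (genotype on high cholesterol), 3.46% (diet in Gramd1c-/- mice) and 1.72% (diet in Gramd1c+/+ mice) did not overlap. In the count fit, Pemt on low cholesterol was at -0.29 (95% interval -0.64 to 0.07, SE 0.17, edgeR adjusted p = 0.999). On a per-library contrast between long and short transcripts, which Pemt ran against over 19 mice (r = -0.73), all Gramd1c-/- libraries on low cholesterol lay above 0 (0.05 to 0.35) and the Gramd1c+/+ libraries between -0.34 and 0.24. With that contrast as a covariate the Pemt estimate was -0.18 (edgeR adjusted p = 0.9997), smaller by more than 1.5 times, and what sets the contrast was not tested. On high cholesterol Pemt had 319, 321, 280, 269 and 269 TPM in Gramd1c-/- mice, against 263, 351, 379, 305 and 260 TPM in Gramd1c+/+ mice, with an estimate of -0.18 (SE 0.16). The interaction estimate was 0.11 (SE 0.24, 95% interval -0.39 to 0.60) and was not called. The Gramd1c+/+ low cholesterol group also serves as the reference of the diet comparison in Gramd1c+/+ mice, where Pemt was 15.9% lower in mean TPM on high cholesterol (exact permutation p = 0.0714).

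Lpcat3, which places polyunsaturated chains into lysophosphatidylcholine, ranged from 64.6 to 100 TPM in Gramd1c-/- and from 73.3 to 125 TPM in Gramd1c+/+ mice on high cholesterol, and from 78.4 to 101 and 71.5 to 132 TPM in the same genotypes on low cholesterol. The ranges overlapped, and its estimates lay between -0.19 and -0.06 in the 4 pairwise comparisons (log2, SE 0.16 for each). It shares 334 exon bases with Emg1 on the other strand.

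Over the 10 members the median log2 fold change for diet averaged over the genotypes was -0.13, with 10 of 10 values below 0. Over all 15016 genes the median was 0.02 and 47.0% were below 0. For diet in Gramd1c-/- mice 8 of 10 were below 0 (median -0.11, against 0.02 over all genes) and for diet in Gramd1c+/+ mice 10 of 10 (median -0.16, against 0.01). For genotype the counts were 7 of 10 on high and 9 of 10 on low cholesterol, with medians of -0.10 and -0.11, against 0.01 and -0.0014 over all genes. Of 35 other listed genes of the pathway, 16 were below 0 for diet averaged over the genotypes (median 0.02). For diet it was 14 in Gramd1c-/- mice (median 0.11) and 16 in Gramd1c+/+ mice (median 0.01). For genotype it was 21 on high and 22 on low cholesterol (median -0.02 each). These comparisons share groups of mice, and members vary together between mice, so the counts are not separate observations.

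The members were not the only enzymes at most of their steps. Gpam made up 39.0% of the summed TPM of 4 glycerol-3-phosphate acyltransferases on average, and between 13.04% and 56.3% in single mice. Gpat4, an isoenzyme of the endoplasmic reticulum, made up 51.3% and averaged 55.4 ± 13.3 TPM. Agpat2 held 66.7% of its step, with Agpat3 at 29.3%. Lpin1 held 57.7% of the lipin step (range 34.7% to 81.3%), and Lpin2 39.3%, at a steadier 39.6 ± 9.01 TPM. Dgat2 held 96.9% of the step from diacylglycerol to triglyceride, counting the monoacylglycerol acyltransferases Mogat1 and Mogat2. In the ethanolamine branch the kinase Etnk2 averaged 181 ± 53.7 TPM and Pcyt2 152 TPM. Pcyt1b, the beta form of the choline cytidylyl transferase, averaged 0.127 TPM against 31.9 TPM for Pcyt1a. Lpcat3 held 49.8% of the summed TPM of 9 lysophospholipid acyltransferases, followed by Lpgat1 at 25.4%.

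**Figure D3:**
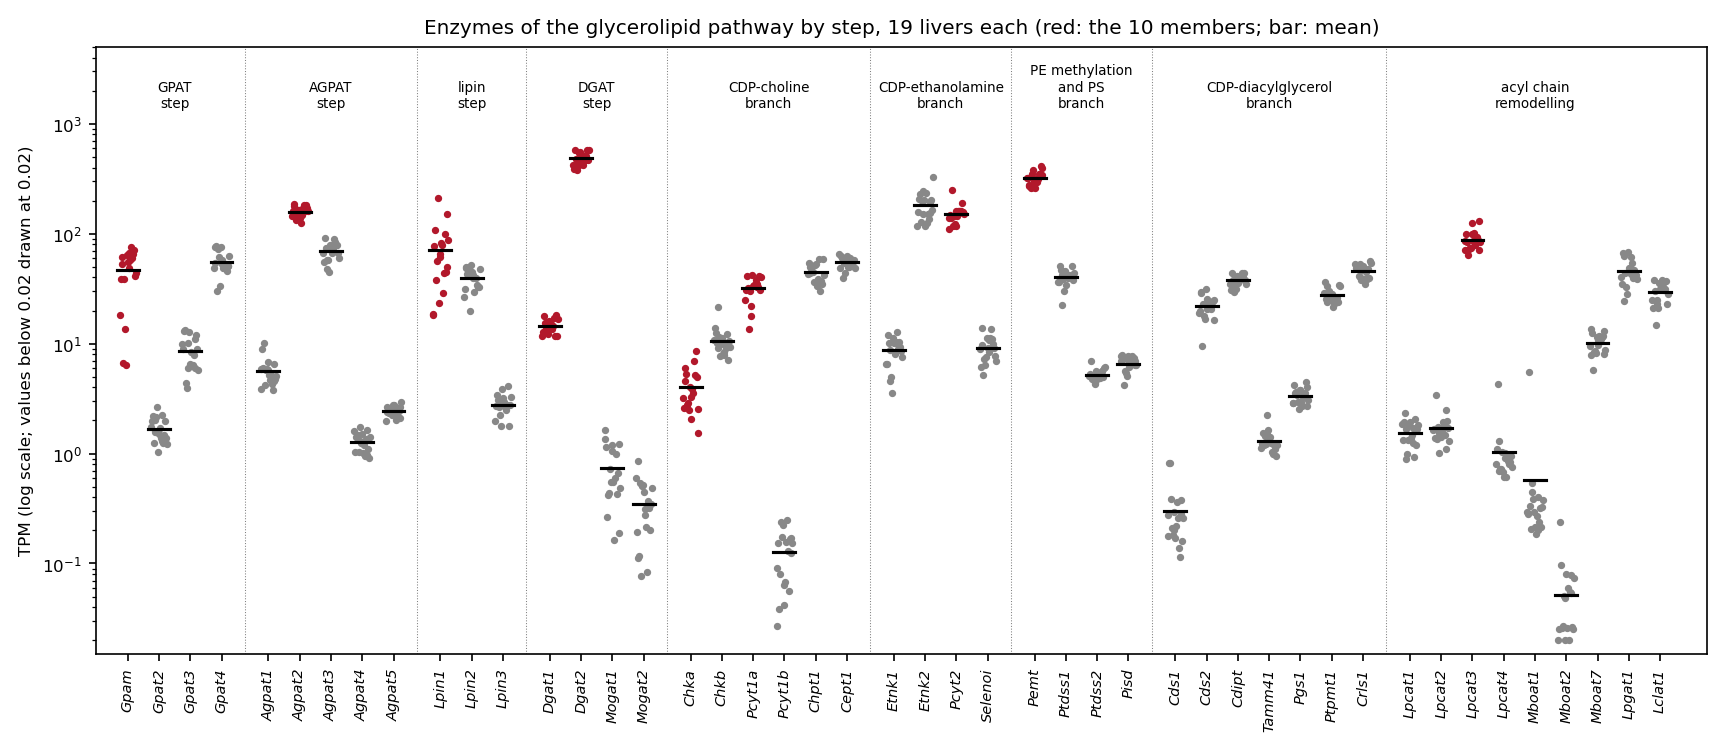
TPM (y axis, log scale) of the listed enzymes by step of the pathway (x axis), with 1 point per mouse over 19 mice and a bar at the mean; the 10 members are in red. Dgat2 at 484 TPM and Pemt at 321 TPM are the highest of the listed enzymes, and Pcyt1b at 0.127 TPM and Mboat2 are the lowest.

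No other listed gene of the pathway was called. Of 36 other listed genes, 35 were abundant enough to be tested, and edgeR called 0 of 35 in each of the 7 comparisons. At an unadjusted p under 0.05 there were 7 of 35 for diet in Gramd1c-/- mice (11.4% of all genes), 2 in Gramd1c+/+ mice (7.93%) and 8 averaged over the genotypes (18.3%). For genotype there were 4 on high cholesterol (2.42% of all genes), 0 on low cholesterol (2.66%) and 0 averaged (2.98%), and 1 for the interaction (1.66%). The members had 0 of 10 in each of these apart from the averaged diet comparison, and the 2 lists were not tested against each other. Of 5 genes of triglyceride hydrolysis (Pnpla2, Abhd5, G0s2, Lipe, Mgll), 0 were called in any comparison. The smallest unadjusted p among the isoenzymes was that of Chkb, the beta form of choline kinase, for diet in Gramd1c-/- mice, at 0.68 (SE 0.20, edgeR adjusted p = 0.284). Of its 5805 exonic bases 3064 are shared with other genes, most of them with Cpt1b on the same strand, so how much of the count belongs to Chkb is uncertain. Gramd1c-/- high cholesterol mouse 5 had 21.5 TPM of Chkb, with the other 4 mice of that group between 10.1 and 14.0 TPM.

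Between mice, some members rose and fell together. Deviations from the group means in log2 CPM (counts scaled to library size) were correlated over 19 mice for 45 pairs of members, as a description, and 7 pairs had an r of more than 0.6 in size. The closest pair was Gpam with Pcyt1a (r = 0.85, rho = 0.75, and r = 0.68 without the 2 mice farthest from the median of Gpam). In the other pairs, too, the 2 mice left out were chosen on 1 gene, the first named unless stated. Dgat1 with Dgat2 gave r = 0.74 (rho = 0.76, 0.64 without 2 mice) and Lpin1 with Dgat1 gave r = 0.67 (rho = 0.68, 0.68 without 2 mice). Agpat2 with Pemt gave r = 0.66 (rho = 0.61, 0.48 without 2 mice). Gpam ran against Pemt (r = -0.64, rho = -0.64, -0.63 without 2 mice). Pcyt2 ran against Pcyt1a (r = -0.72, rho = -0.45) and against Gpam (r = -0.65, rho = -0.37). Without the 2 mice farthest from the median of Pcyt1a or of Gpam the r values were -0.32 and -0.33. Leaving out extremes also narrows the range, so the drop alone does not show that r rested on 2 mice. All of these share the same 19 libraries.

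**Figure D4:**
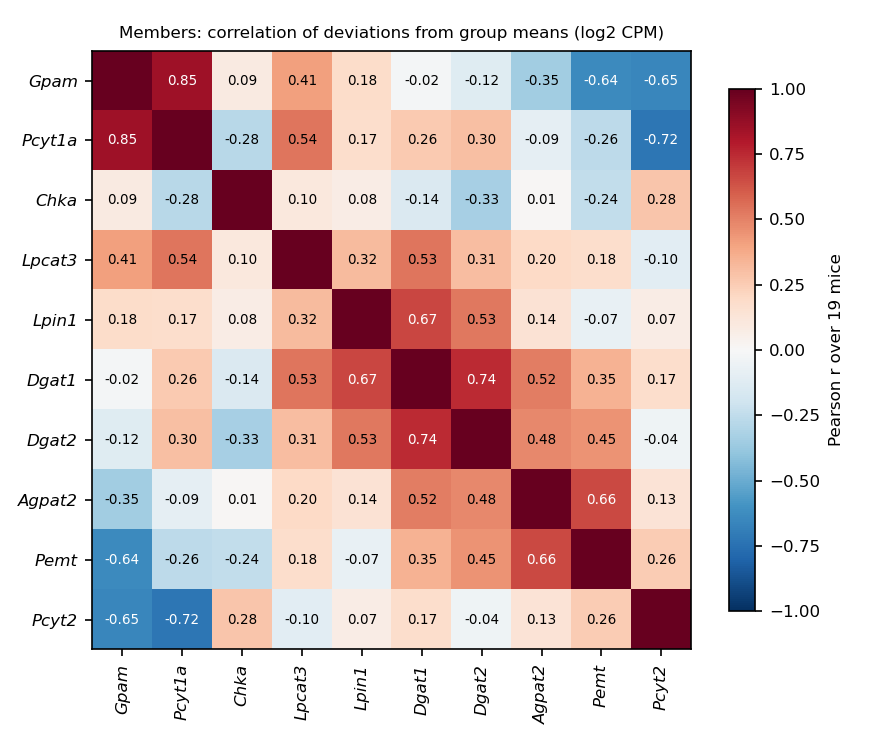
Pearson r (colour scale from -1 to 1, value in each cell) between members, over 19 mice, of log2 CPM after the group mean was taken away. Gpam and Pcyt1a (0.85) sit at 1 corner, Dgat1 with Dgat2 (0.74) and with Lpin1 (0.67) in the middle, and Pcyt2 is opposite Pcyt1a (-0.72).

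The levels of several members, Gpam and Pemt most closely, moved with a property of the library. For each mouse the median log2 deviation of 1546 genes with at least 8000 exonic bases was set against that of 841 genes with fewer than 1500, the listed genes left out. This contrast, long minus short, was -0.26, -0.55, 0.50, 0.25 and -0.40 in Gramd1c-/- mice on high cholesterol, and -0.06, -0.31, -0.69, 0.40 and 0.21 in Gramd1c+/+ mice on high cholesterol. On low cholesterol it was between 0.05 and 0.35 in Gramd1c-/- mice and between -0.34 and 0.24 in Gramd1c+/+ mice. The 4 mice under 20 TPM of Gpam had -0.26 and -0.40 (Gramd1c-/-) and -0.31 and -0.69 (Gramd1c+/+), and the mouse at -0.55 had 39.0 TPM of Gpam. As deviations from group means over 19 mice, Gpam followed the contrast with r = 0.77 (rho = 0.76, 0.67 without 2 mice) and Pcyt1a with r = 0.53 (rho = 0.48, 0.37 without 2 mice), whereas Pemt ran against it with r = -0.73 (rho = -0.71, -0.60 without 2 mice). Chka also followed it, with r = 0.44 (rho = 0.49, 0.56 without 2 mice), and Lpin1 had r = 0.38 (0.21 without 2 mice), with the other 5 members between -0.37 and 0.36. The 2 mice left out were those farthest from the median of the contrast. The exonic lengths are 3832 bases for Gpam, 5751 for Pcyt1a, 2104 for Pemt and 12024 for Chka. With the contrast as a covariate in the edgeR fit, an alternative chosen after the data were seen, the diet estimate averaged over the genotypes was -0.62 for Gpam (adjusted p = 0.271) and -0.26 for Pcyt1a (adjusted p = 0.355). What sets the contrast, whether RNA quality or liver state, was not tested.

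**Figure D5:**
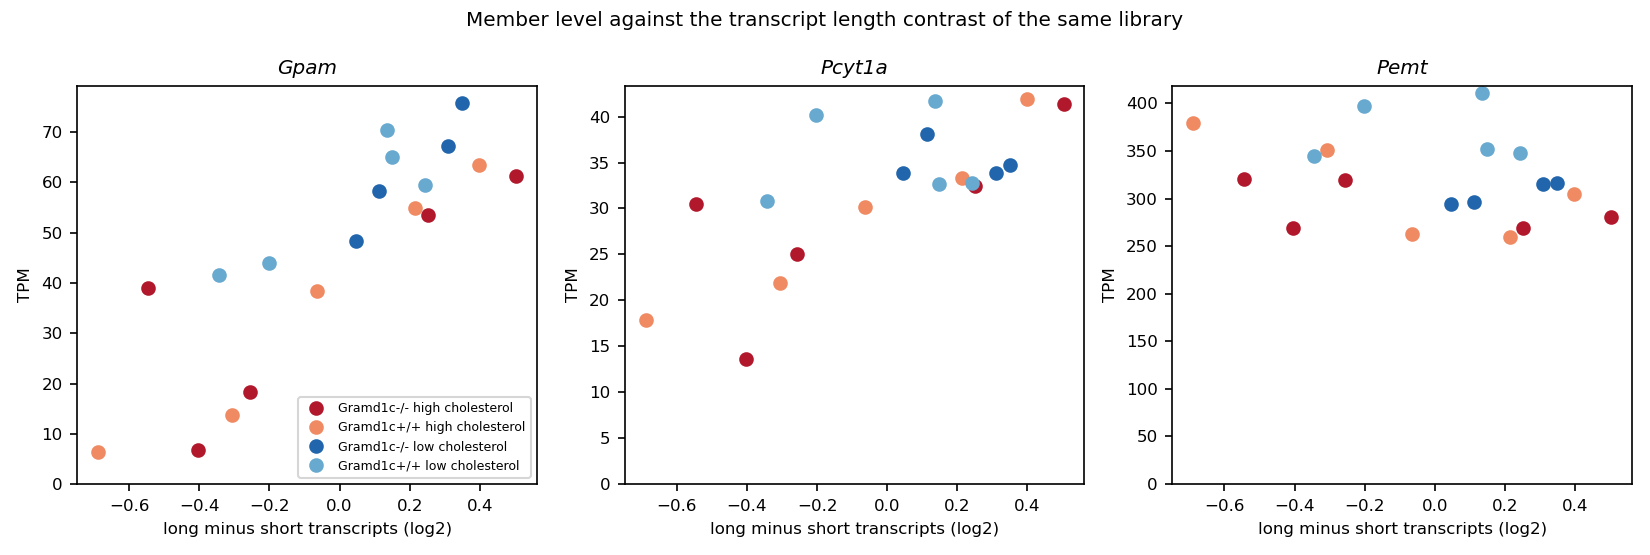
TPM (y axis, linear, from 0) of Gpam, Pcyt1a and Pemt in each of 19 mice against the difference between long and short transcripts in the same library (x axis, log2), coloured by group. The 4 mice with under 20 TPM of Gpam have a contrast between -0.69 and -0.26.

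Among 9755 well expressed genes, chosen by rank after their values were seen, the 5 that followed Lpin1 most closely over 19 mice were Il6ra (r = 0.90), St3gal5 (0.89), Baiap2l1 (0.88), Cdip1 (0.87) and Fbxo31 (0.86). The closest to Chka were Bach2 (0.87), Hyou1 (0.85), Pdia4 (0.83), Itsn1 (0.81) and Avpr1a (0.81). Of these 5, Hyou1 and Pdia4 encode chaperones of the endoplasmic reticulum. Chka was highest in Gramd1c+/+ low cholesterol mouse 2, the library with the highest adrenal and adipocyte marker sums. The r values for Chka were not recomputed without that mouse. For Gpam all of the top 5 had an r of 0.98 or more, led by 2900097C17Rik at 0.99, and Ccdc12 was most opposite at -0.98. Among the listed regulators and hydrolysis genes, 220 pairs with members were examined and 6 had an r over 0.75 in size. The share of all genes with an r this large was not counted, and no link between these genes was tested. The 2 mice left out were those farthest from the median of the listed gene. Gpam followed Ppara, which encodes a fatty acid sensor (r = 0.88, rho = 0.93, 0.83 without 2 mice). Lpin1 followed Pnpla2, the adipose triglyceride lipase gene (r = 0.83, rho = 0.85, 0.85 without 2 mice). Dgat2 followed Ppargc1a, which encodes a coactivator (r = 0.80, rho = 0.86, 0.75 without 2 mice), and so did Dgat1 (r = 0.78). These members did not share both regulators: Gpam had r = 0.09 with Ppargc1a, and Dgat2 and Dgat1 had r = -0.29 and -0.05 with Ppara. Pcyt2 followed Mlxipl, the carbohydrate response factor (r = 0.86), but only with rho = 0.54 and r = 0.41 without 2 mice, and Nr1h2 in the same way (0.76, and 0.38 without 2 mice).

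Promoter windows were read for sterol regulatory elements, because Gpam and Pcyt1a had the lowest p values for diet and Hmgcs1 is a strong responder for comparison. RefSeq windows (GRCm38.p6, 250 bases before to 50 after a start site) were at hand for 7 of 10 members, in 11 windows, and Dgat1, Dgat2 and Pcyt2 were not among them. The 8-base core of the classic sterol regulatory element, CACCCCAC on either strand, was in 3 of 11 member windows, which hold 2 distinct sites because a pair of overlapping Pcyt1a windows share 1, the other being in Gpam, and in 2.87% of all 32851 windows. CACGTG was in 0 of 11 (7.15% of all), CCAAT in 4 of 11 (37.4%) and GGGCGG in 6 of 11 (35.7%), either strand each time. The 3 windows given here run 5′ to 3′ on the gene's strand with the 8-base core in capitals, to set members beside a called gene. The Pcyt1a window is chr16:32430671-32430970 (+) and its start site is the gene start in the count tables. The Gpam window is chr19:55127189-55127488 (-) and belongs to a start site at 55127238, upstream of the gene as the count tables bound it (55069734 to 55099451). The other Gpam window, whose start site at 55099477 is next to that bound, holds no match. A further Pcyt1a window, with its start site at 32431230, holds no match either. The Hmgcs1 window is chr13:119690101-119690400 (+), with its start site at 119690351, upstream of the counted gene, which starts at 119690462.
Pcyt1a: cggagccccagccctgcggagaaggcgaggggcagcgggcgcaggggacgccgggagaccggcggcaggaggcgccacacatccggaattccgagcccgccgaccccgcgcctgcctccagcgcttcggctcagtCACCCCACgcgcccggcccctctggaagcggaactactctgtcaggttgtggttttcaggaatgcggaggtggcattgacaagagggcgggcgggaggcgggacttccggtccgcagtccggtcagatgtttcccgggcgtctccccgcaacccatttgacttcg
Gpam: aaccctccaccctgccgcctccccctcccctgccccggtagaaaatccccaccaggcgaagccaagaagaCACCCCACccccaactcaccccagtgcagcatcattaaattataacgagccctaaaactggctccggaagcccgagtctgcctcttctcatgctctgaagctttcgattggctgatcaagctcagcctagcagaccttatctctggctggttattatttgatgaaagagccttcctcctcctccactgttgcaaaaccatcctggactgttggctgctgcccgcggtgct
Hmgcs1: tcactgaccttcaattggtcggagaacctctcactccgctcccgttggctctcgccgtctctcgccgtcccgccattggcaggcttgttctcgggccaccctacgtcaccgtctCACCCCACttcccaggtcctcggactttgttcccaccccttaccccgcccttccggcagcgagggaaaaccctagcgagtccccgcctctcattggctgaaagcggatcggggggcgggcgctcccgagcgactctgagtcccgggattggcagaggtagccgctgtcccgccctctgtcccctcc
The core lies at -115 from the start site in Pcyt1a, at -180 in Gpam and at -136 in Hmgcs1, counted to its first base and in the gene's direction each time. For comparison, windows of Fasn, Hmgcs1 and Srebf2, which were called for diet, were read, and of these 3 windows 1 held the core, that of Hmgcs1. Windows of the other genes called for diet were not set apart, so this is not a share among called genes. Pcyt1a and Gpam held the same letters without being called. A match of letters is not a bound site.

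In the coordinates of the count tables (GRCm38) the protein-coding members lie at chr19:55069734-55099451 (Gpam), chr2:26593057-26604417 (Agpat2), chr12:16535669-16589770 (Lpin1), chr15:76502015-76511951 (Dgat1), chr7:99153658-99182719 (Dgat2), chr11:59970614-60046489 (Pemt), chr16:32430921-32475070 (Pcyt1a), chr11:120610087-120617936 (Pcyt2), chr19:3851773-3894369 (Chka) and chr6:124663027-124704418 (Lpcat3). Counts were summed over the exons of each gene. Agpat2 shares 64 exon bases with Egfl7 on the other strand.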

How the data were processed

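Liver mRNA was sequenced from 19 female mice, 1 library each. For each mouse the authors deposited a table of raw counts by Ensembl gene, whole numbers without normalization, with gene positions and exonic lengths. The submitters' processing notes name STAR 2.5.2b and GRCm38; counter, strand setting, annotation and trimming: not given in the sources used here. A symbol was matched for 48970 of 49315 genes. Totals ranged from 27149972 to 34669648 counts (median 30159347), and the common biological coefficient of variation was 0.255.

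Groups came from the labels. Counts were fitted with edgeR 4.0.16 in R 4.3.3 (TMM, filterByExpr with minimum count 10, 1 coefficient per group, quasi-likelihood F test), with Benjamini-Hochberg adjustment over 15016 genes and calls below 0.05. TPM were tested with two-sided exact permutation tests (every split of the mice, Python 3.11.15) for members only, unadjusted. Both kinds of p-value set a difference between groups against the spread between mice. Alternatives were DESeq2 1.42.0, RLE, no filter, only the groups compared, limma 3.58.1 on log2(TPM + 1), a replicate block, leaving out each mouse, leaving out Gramd1c+/+ low cholesterol mouse 2 and Gramd1c-/- high cholesterol mouse 5 together, and, added later, a length covariate. Of these fits, only edgeR, DESeq2 and limma were run on simulated counts, which had the same spread for every gene. No value given here rests on that simulation. The members and the gene lists were chosen with earlier results of these data known, as were the alternatives. Named genes are all members, their isoenzymes, called pathway genes, listed regulators and Gramd1c; 1 gene that the rule takes in is not reported here.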

Additional observations from a re-analysis of the deposited data

Results flagged for a closer look

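Each member's TPM was examined for a single mouse far from the rest of its group, in 40 sets of 4 or 5 mice, with Dixon's test at its 95% critical value, and 4 sets had one. Chance alone flags about 1 in 20 sets. Lpin1 in Gramd1c+/+ high cholesterol mouse 2 was at 210 TPM, with the other 4 mice between 23.4 and 66.0 TPM. Pcyt2 in Gramd1c-/- high cholesterol mouse 5 was at 252.1 TPM, with the others between 109 and 148 TPM. That library also stood apart on principal component 1, and the share of this in the Pcyt2 value was not tested. Pcyt2 in Gramd1c+/+ low cholesterol mouse 2, the mouse with the highest adrenal and adipocyte marker sums, was at 190 TPM, with the others between 151 and 160 TPM. Pcyt2 in Gramd1c-/- low cholesterol mouse 1 was lowest of its group at 145 TPM, with the others between 160 and 162 TPM.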

How the results depend on the processing

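In the 186 alternative fits of a comparison, the count of members called was 0, replicate block included (0 in each of 7 comparisons), and 0 of 1860 member estimates passed the threshold. In 101 of these the sign differed from that with all mice, 92 of them within 1 standard error, where the estimate was near 0. The other 9 came from leaving out mice. Leaving out each mouse gave -0.15 to 0.12 for Lpcat3 and diet in Gramd1c+/+ mice, -0.18 to 0.094 for Lpcat3 and genotype on low cholesterol, and -0.69 to 0.55 for the Lpin1 interaction. For Pcyt2 it gave -0.10 to 0.28 for genotype on high cholesterol, -0.074 to 0.11 averaged over diets and -0.052 to 0.33 for the interaction. Without both libraries that stood apart, Pcyt2 was at -0.10, -0.069 and -0.062 in these comparisons. The sign changes of Pcyt2 come with the loss of Gramd1c-/- high cholesterol mouse 5, and their cause was not tested.

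Counts over all genes moved more. For diet averaged over the genotypes edgeR called 195 genes, DESeq2 600 and the fit with the replicate block 122, and leaving out each mouse gave 119 to 308. For diet in Gramd1c-/- mice the count was 49, and 91 with DESeq2. For diet in Gramd1c+/+ mice it was 66, and 110 with DESeq2. Replicate numbers showed no sign of pairing the mice, which does not exclude it: deviations of same-numbered mice correlated with a mean r of -0.07 over 27 pairs. Of 19 mice, 1 correlated best with its own number. Spread between mice differed by gene: the SE was 0.33 for Gpam and diet and 0.40 for Lpin1 and genotype, both averaged, against 0.13 for Abcg5, which was called for diet at a smaller estimate. Every member had at least 273 counts in every library.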
